A study of Mus musculus with 16 samples.

Results

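Epithelial regulators were followed in the developing mouse epididymis through 9 genes. Ehf, Elf3, Elf5, Grhl2, Ovol1 and Ovol2 encode transcription factors, Esrp1 and Esrp2 encode RNA-binding splicing regulators, and Epcam encodes an epithelial adhesion molecule. The members were all probe sets annotated to these 9 symbols, which gave 19 of the 45101 probe sets and 9 of the 18193 genes named on the array. A probe set is a group of short DNA probes that together measure a transcript. Of the 19, 10 passed a filter on low signal, and they stood for 6 of the 9 genes. No probe set of Elf5, Ovol1 or Ovol2 passed.

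RNA of epididymides, excised whole from wild-type male CD-1 mice (an outbred stock), was amplified in 2 rounds and hybridised to Affymetrix arrays. Each of 5 stages had 3 arrays. They were gestational day 12 (gd12), day 14 (gd14), day 16 (gd16) and day 18 (gd18), and the second day after birth (pnd2). There was also 1 array of pooled wild-type newborns (4 male and 4 female whole animals at postnatal day 0.5, with no strain given). The sample labels describe the gd12 and gd14 arrays as pools with a pool size of 3 and the later arrays as unpooled, while the series description gives a single animal, from a separate dam, for each array. How many animals stand behind a gd12 or gd14 array is therefore not settled by the labels, and the p-values below measure the spread between these arrays.

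Epithelia keep their sheets and tubes through a small set of transcription factors. Ehf, Elf3 and Elf5 belong to the epithelial branch of the ETS family, Grhl2 is a grainyhead-like factor that activates genes of cell junctions, and Ovol1 and Ovol2 are zinc finger proteins that repress mesenchymal regulators such as Zeb1. Esrp1 and Esrp2 direct the epithelial splice forms of transcripts such as Fgfr2 and Cd44. The epithelium of the epididymis arises from the Wolffian duct, a simple tube set in mesenchyme, and in humans EHF is known as an abundant factor of epididymal epithelial cells.

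The deposited value for each probe set and array was an intensity (signal) on a linear scale, which gives the level of a transcript relative to itself on other arrays. The mean of the middle probe sets was the same on all 16 arrays (500.003 to 500.004 after 2% were trimmed at each end). The array called pnd2 replicate 3 stood apart. Its ratio of 3' to 5' Gapdh signal, a measure of RNA quality, was 63.2, against 4.33 to 7.18 on the 14 remaining arrays of epididymis, its median signal was 81.2 against 110.3 to 133, and its mean correlation with its stage mates was 0.829 against 0.896 to 0.970. Where a result on a member depends on it, the value without it is given too. Germ cell markers (9 of 10 listed genes passed the filter, Nanog did not) summed to 17481 to 26357 at gd12, 1824 to 2272 at gd14, 865 to 1061 at gd16, 789 to 1167 at gd18 and 1214 to 1366 at pnd2. Wolffian duct markers summed to 1897 to 3946 at gd12 and 4757 to 7932 at pnd2, with 6 of 10 listed genes measured and Ret below the filter. Of 5 epididymal secretory markers with a probe set only Defb29, a defensin, passed, and Lcn5, Lcn8, Cst11 and Adam28 did not.

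Ehf, an ETS factor, had the largest change of the members that passed the filter. Signal of its brightest probe set (1451375_at) was 13.7, 5.56 and 4.03 at gd12, 91.6, 87.4 and 129.9 at gd14, 190.5, 307 and 229 at gd16, 747, 712 and 719 at gd18, and 1489, 1435 and 2469 at pnd2. Every array of a stage lay above every array of the stage before it. On its own array the probe set stood, on average, at the 8.18th percentile of all probe sets at gd12, the 45.8th at gd14, the 61.4th at gd16, the 80.5th at gd18 and the 90.2nd at pnd2.

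Stages were compared on log2(signal + 16) with limma, with p-values adjusted over all 25981 probe sets that passed the filter, and a change was called at an adjusted p under 0.05. Ehf rose to gd14 against gd12 by 2.33 ± 0.27 (log2 change ± SE, n = 3 arrays per stage, adjusted p = 9.47e-05), which is 5.02-fold on this scale. The gd12 signals lay below the constant of 16, so the fold depends on it. The fold was 13 with a constant of 1 and 2.32 with a constant of 64, and the rise was called under both. Ehf was higher at gd16 than at gd14 by 1.11 ± 0.27, which did not pass the test (adjusted p = 0.228) and passed it without pnd2 replicate 3 (adjusted p = 0.0341). It rose to gd18 against gd16 by 1.55 ± 0.27 (adjusted p = 0.0366), a call that held in 7 of 15 fits with 1 array left out. Over the longer interval it rose to gd18 against gd14 by 2.66 (adjusted p = 0.000133), which held in all 15. The difference of pnd2 from gd18 was 1.24 ± 0.27 and just missed the threshold (adjusted p = 0.0518), and without pnd2 replicate 3 it was 0.99 ± 0.26 (adjusted p = 0.0625). Against gd12, Ehf rose at pnd2 by 6.23 ± 0.27 (adjusted p = 2.33e-09), or 5.98 without pnd2 replicate 3, and this call held in all 15 fits.

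Whole organs were measured, so more epithelial cells and more RNA per epithelial cell cannot be told apart in this or any following result. The germ cell sum given above moved against Ehf between gd12 and gd14, and the summed signal of 9 mesenchyme markers moved with it (57599 to 69921 at gd12, 136925 to 149992 at gd14, 191817 to 225670 at pnd2). The sum of 9 macrophage markers also moved with it between gd12 and gd14 (2260 to 5114 at gd12, 9079 to 10916 at gd14). Of these markers 7 rose at gd14 against gd12, where 6.01% of all genes rose. After gd14 the macrophage sum did not climb with Ehf (8942 to 9872 at gd16, 8454 to 9576 at gd18, 8611 to 12258 at pnd2). The part of these marker groups in the result was not tested.

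**Figure D1:**
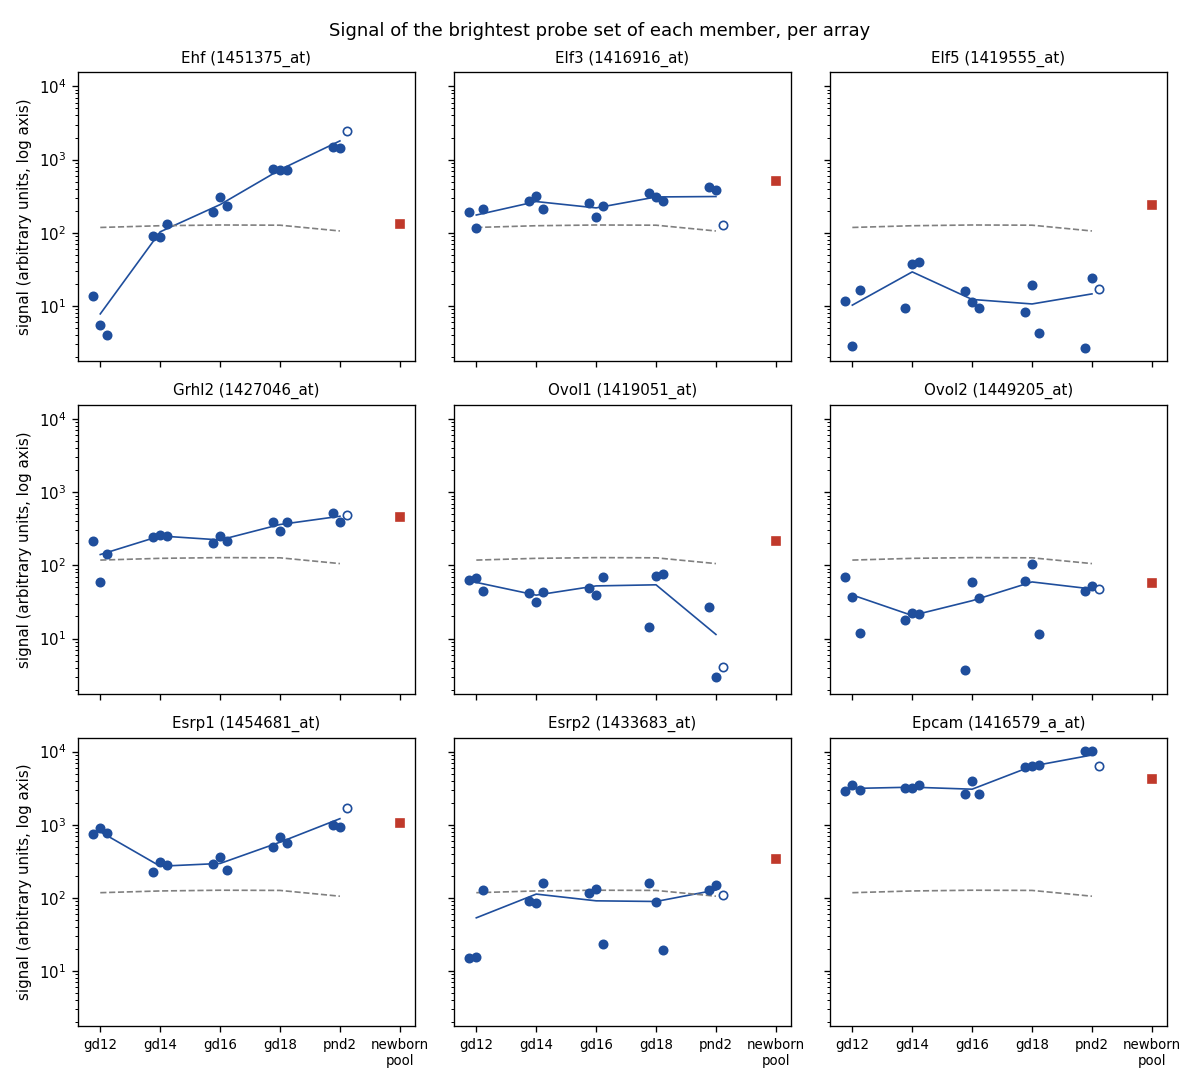
Signal per array (y axis, arbitrary units, log scale) of the brightest probe set of each of the 9 genes by stage (x axis). Blue points are arrays, the open symbol is pnd2 replicate 3, the line joins stage means, the dashed line is the mean array median of a stage, and the red square is the newborn pool. Ehf lies between 4.03 and 13.7 at gd12 and between 1435 and 2469 at pnd2, Esrp1 dips at gd14 and gd16, and Elf5, Ovol1 and Ovol2 stay below the dashed line at every stage.

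A pair of further Ehf probe sets gave stage means in the same order up to gd18. Probe set 1419474_a_at gave 3.43, 23.4 and 41.6 at gd12, 82.0, 58.5 and 55.8 at gd14, 96.3, 125.5 and 97.1 at gd16, 236, 195 and 263 at gd18, and 421, 475 and 258 at pnd2. Probe set 1419475_a_at gave 3.3, 13.6 and 4.98 at gd12, 44.6, 82.2 and 55.4 at gd14, 76.8, 109.9 and 80.3 at gd16, 206, 190.4 and 202 at gd18, and 335, 245 and 92.9 at pnd2. On pnd2 replicate 3 the probe sets of this gene moved apart. 1451375_at was highest there of all arrays, while 1419474_a_at and 1419475_a_at were lower there than on both other pnd2 arrays.

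Both rose at pnd2 against gd12, by 3.46 ± 0.37 for 1419474_a_at (adjusted p = 1.32e-05) and 3.23 ± 0.40 for 1419475_a_at (adjusted p = 5.22e-05). Against gd12, 1419475_a_at also rose at gd14, by 1.72 ± 0.40 (adjusted p = 0.0142), while the 1.19 ± 0.37 of 1419474_a_at did not pass (adjusted p = 0.0604). Without pnd2 replicate 3 this change of 1419474_a_at passed (adjusted p = 0.0227). 1419474_a_at rose at gd18 against gd14 by 1.61 ± 0.37 (adjusted p = 0.0395), a call that held in 5 of 15 fits with 1 array left out. In that comparison 1419475_a_at was higher by 1.52 ± 0.40. Its change did not pass (adjusted p = 0.0784) and passed without pnd2 replicate 3 (adjusted p = 0.0121). Across the 15 arrays these 3 probe sets correlated at 0.907 to 0.932 in pairs, as a description of arrays that share the stage trend. The last Ehf probe set, 1447760_x_at, was below its array's median on all 15 arrays, at 7.02 to 117.7, with a median of 46, and followed no such order.

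**Figure D2:**
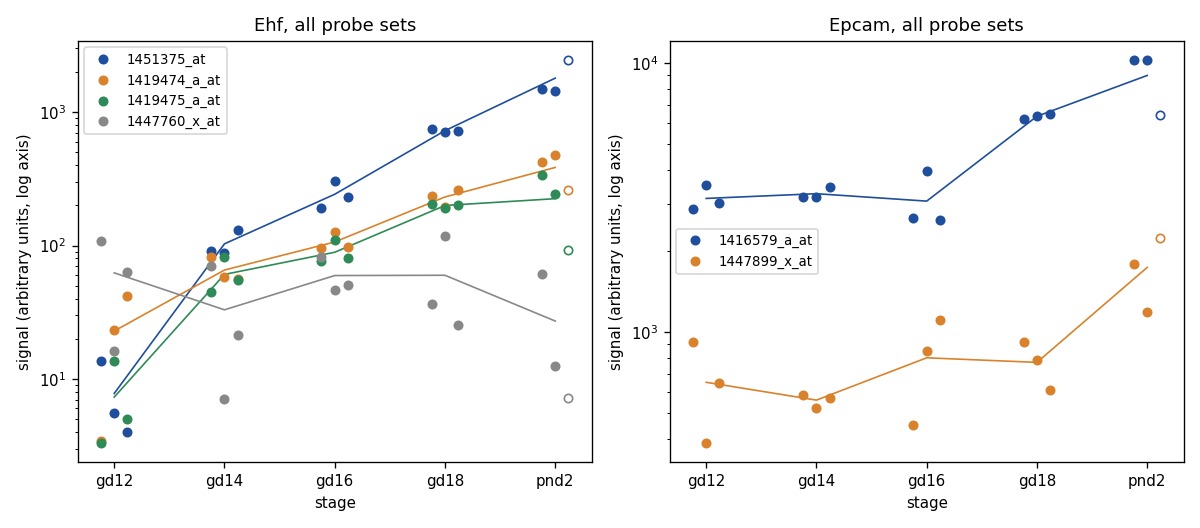
Signal per array (y axis, arbitrary units, log scale) of all 4 probe sets of Ehf (left) and both of Epcam (right) by stage (x axis). Points are arrays, open symbols are pnd2 replicate 3, and lines join stage means. Ehf probe sets 1451375_at, 1419474_a_at and 1419475_a_at climb together to gd18 and separate on pnd2 replicate 3. The Epcam probe sets lie in opposite directions from their stage mates on that array.

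Elf3, an ETS factor of simple epithelia, was measured by 1 probe set (1416916_at), which lay at or above its array's median on all 15 arrays. Signal was 194, 116 and 214 at gd12, 272, 314 and 214 at gd14, 256, 166 and 233 at gd16, 345, 308 and 272 at gd18, and 423, 388 and 127 at pnd2. Values of gd14 and gd16 and of gd18 and pnd2 overlapped, while all gd14 arrays lay just above all gd12 arrays and all gd18 arrays above all gd16 arrays. The lowest pnd2 value came from replicate 3. No comparison passed with 15 arrays, and pnd2 was higher than gd12 by 0.66 ± 0.37 (adjusted p = 0.214). Without pnd2 replicate 3 Elf3 rose at pnd2 against gd12 by 1.18 ± 0.26 (adjusted p = 0.00312). The call thus depended on that array.

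The 250 bases before the start site of Elf3 are shown because Elf3 and Epcam are the members that passed the filter and have a RefSeq window (GRCm38.p6). The Elf3 window is chr1:135258473-135258722 on the minus strand. Capitals mark CACCTG, an E-box bound by Snail and Zeb repressors, which lies at -140 to -135 from the start site. Such windows were searched on both strands for that motif, for AACCNGTT (grainyhead-like), GGAAGT (ETS) and CCGTTA (Ovo-like), and the last 3 had no match in this one.
Elf3: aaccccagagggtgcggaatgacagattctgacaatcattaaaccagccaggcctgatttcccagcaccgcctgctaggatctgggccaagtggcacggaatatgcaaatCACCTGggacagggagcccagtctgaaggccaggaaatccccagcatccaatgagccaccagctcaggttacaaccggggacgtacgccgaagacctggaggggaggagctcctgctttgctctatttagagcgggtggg
Of 32851 windows of this length, 17.2% held CACCTG, 19.7% GGAAGT, 2.18% CCGTTA and 1.79% AACCNGTT. Windows were found for 4 of the 9 members, 5 windows in all, and a match describes letters and not a site in use.

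Elf5, an ETS factor of mammary, lung and placental epithelium, stayed low in the epididymis. Its probe set 1419555_at ranged from 2.67 to 40.3, with a median of 11.7, and 1419556_at from 5.89 to 45.4, with a median of 9.27, over the 15 arrays. Neither reached its array's median on any of them, so no change was tested in the filtered table. In the newborn pool 1419555_at gave 238, above all 15 epididymis arrays, and 1419556_at gave 41.4, above 14 of them. Of the RefSeq windows of Elf5, 1 held CACCTG at 3 places and the other held none of the 4 motifs.

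Grhl2 had 4 probe sets, of which 2 passed the filter. Signal of 1427046_at was 218, 59.3 and 144 at gd12, 248, 258 and 250.3 at gd14, 202, 253 and 213 at gd16, 396, 291 and 397 at gd18, and 519, 394 and 494 at pnd2. The gd12 arrays were scattered, and all 3 pnd2 arrays lay above all arrays from gd12 to gd16. Grhl2 rose at pnd2 against gd12 by 1.77 ± 0.32 (adjusted p = 0.00127), or 1.73 ± 0.34 without pnd2 replicate 3, and the call held in all 15 fits with 1 array left out. The step to gd14 against gd12, 0.92 ± 0.32, did not pass (adjusted p = 0.0933) and passed without pnd2 replicate 3 (adjusted p = 0.0373). The steps between later neighbouring stages ran from -0.17 to 0.65 and none passed.

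Probe set 1431877_a_at of Grhl2 did not share this course. It gave 30.6, 109.2 and 140.4 at gd12, 48.1, 169 and 149 at gd14, 104, 148 and 116 at gd16, 185, 159 and 21.0 at gd18, and 47.2, 138 and 73.1 at pnd2. Values within a stage spread as widely as values across stages, and its correlation with 1427046_at over the 15 arrays was -0.21. The 2 other Grhl2 probe sets ranged from 4.74 to 77.0 (1431878_at) and from 5.28 to 128.7 (1452643_at) and did not pass the filter.

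Ovol1 and Ovol2 were not above the middle of the epididymis arrays at any stage. Ovol1 probe set 1419051_at ranged from 2.96 to 77.2 and 1419052_at from 2.68 to 52.2, and Ovol2 probe set 1449205_at from 3.75 to 104, with medians of 43.4, 10.3 and 37.0. Signal of 1419051_at was 27.1, 2.96 and 4.06 at pnd2, against 62.3, 67.9 and 45.2 at gd12, and the groups did not overlap. In a fit of all probe sets without the filter, 1419051_at fell at pnd2 against gd12 by 1.54 on the log2 scale (SE 0.45, adjusted p = 0.0383), where 5.58% of all probe sets fell. Probe set 1419052_at did not share this fall, with means of 24.5 at gd12 and 31.8 at pnd2. Without detection calls a level in this range cannot be told from background. In the newborn pool 1419051_at gave 215 and 1419052_at gave 75.1, each above all 15 epididymis arrays. Ovol2 gave 57.1 in the pool, which 4 of the 15 epididymis arrays exceeded. The single Ovol2 window held 1 GGAAGT and none of the other 3 motifs.

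Esrp1 was the member that fell early and came back. Signal of its probe set (1454681_at) was 752, 896 and 763 at gd12, 223, 308 and 284 at gd14, 290.1, 360.3 and 238 at gd16, 490.2, 672 and 572 at gd18, and 988, 938 and 1708 at pnd2. The gd12 arrays lay above all arrays of gd14, gd16 and gd18 and below all arrays of pnd2. Esrp1 fell to gd14 against gd12 by 1.52 on the log2 scale (SE 0.25, adjusted p = 0.00135), a call that held in all 15 fits with 1 array left out.

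From gd14 on the order was upward. Esrp1 did not differ detectably between gd16 and gd14 (0.11 ± 0.25), and it rose to gd18 against gd14 by 1.05 ± 0.25 (adjusted p = 0.0448), a call that held in 3 of 15 fits with 1 array left out. Between gd18 and gd16 the difference was 0.94 ± 0.25 (adjusted p = 0.271, and 0.0214 without pnd2 replicate 3). Between pnd2 and gd18 it was 1.0 ± 0.25 (adjusted p = 0.0797), and pnd2 against gd12 came to 0.53 ± 0.25 (adjusted p = 0.139). In order of level the stages ran gd14, gd16, gd18, gd12 and pnd2, of which gd14 and gd16 overlapped.

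The early fall of Esrp1 went with a fall in germ cell and gonad transcripts. Of 9 germ cell markers measured, 8 fell at gd14 against gd12 and none rose, and of 10 testis markers measured 6 fell and 1 rose, where 4.94% of all 12239 genes fell and 6.01% rose. Dazl, a germ cell RNA-binding protein, gave 162, 205 and 240 at gd14, against 1216, 2611 and 2086 at gd12. Their part in the fall of Esrp1 was not tested.

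Esrp2 gave no called change. Signal of 1433683_at was 15.3, 15.8 and 129 at gd12, 90.4, 85.7 and 163 at gd14, 117, 134 and 23.3 at gd16, 161, 87.8 and 19.3 at gd18, and 127, 149 and 108.9 at pnd2. The lowest 4 values, 15.3 to 23.3, came from 3 different stages, and the SE of each comparison was 0.69. The second Esrp2 probe set (1419977_s_at) ranged from 7.33 to 122 and did not pass the filter. In the newborn pool 1433683_at gave 340.03, above all 15 epididymis arrays.

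Epcam, which encodes a homophilic adhesion molecule of epithelial cells and is widely used to mark them, was at or above the 93.9th percentile of its array on every epididymis array for probe set 1416579_a_at. Signal was 2873, 3530 and 3005 at gd12, 3173, 3173 and 3450 at gd14, 2642, 3954 and 2598 at gd16, 6178, 6338 and 6485 at gd18, and 10246, 10275 and 6431 at pnd2. The first 3 stages overlapped, and all arrays of gd18 and pnd2 lay above them. On pnd2 replicate 3 the signal was within the range of gd18.

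Epcam rose at gd18 against gd14 by 0.95 ± 0.20 (adjusted p = 0.0224), a call that held in 9 of 15 fits with 1 array left out. The step from gd16 itself, 1.07 ± 0.20 higher at gd18, had an adjusted p of 0.0564, and of 0.00128 without pnd2 replicate 3. Epcam at pnd2 was 0.47 ± 0.20 above gd18 (adjusted p = 0.211), and without pnd2 replicate 3 it rose by 0.69 ± 0.15 (adjusted p = 0.0325). Against gd12 it rose at pnd2 by 1.49 ± 0.20 (adjusted p = 0.000106), or 1.71 ± 0.15 without that array. Between gd14 and gd12 the difference was 0.06 ± 0.20 (adjusted p = 0.908).

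The second Epcam probe set, 1447899_x_at, gave 917, 386 and 647 at gd12, 583, 522 and 569.8 at gd14, 449.7, 849.5 and 1106 at gd16, 915, 789.9 and 608 at gd18, and 1787, 1189 and 2238 at pnd2. All pnd2 arrays lay above all fetal arrays. It rose at pnd2 against gd12 by 1.43 ± 0.35 (adjusted p = 0.00939), but showed no step at gd18 against gd16 (0.02 ± 0.35). The correlation of the 2 Epcam probe sets over the 15 arrays was 0.60.

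The window before the start site of Epcam is shown beside that of Elf3 for the same reason. It is chr17:87635729-87635978 on the plus strand of GRCm38.p6, from RefSeq. Capitals mark CACCTG at -187 to -182, its reverse complement at -19 to -14, and ACCGGT at -174 to -169 and -131 to -126. ACCGGT holds the inner bases of the grainyhead-like motif and was added to the search after this window had been read. It occurs in 1.86% of all windows, and AACCNGTT, GGAAGT and CCGTTA had no match here.
Epcam: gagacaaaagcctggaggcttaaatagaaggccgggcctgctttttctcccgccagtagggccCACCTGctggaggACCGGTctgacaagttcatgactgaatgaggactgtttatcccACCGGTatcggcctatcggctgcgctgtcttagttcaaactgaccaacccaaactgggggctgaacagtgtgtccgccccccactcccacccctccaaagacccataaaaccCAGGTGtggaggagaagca
Among 26 windows of genes from a list of 32 epithelial junction and surface genes, 17 held CACCTG (65.4%, against 17.2% of all windows), 8 held GGAAGT (30.8%, against 19.7%), 3 held AACCNGTT (11.5%, against 1.79%), 2 held CCGTTA (7.69%, against 2.18%) and 1 held ACCGGT (3.85%, against 1.86%). This is a description without a test.

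**Figure D3:**
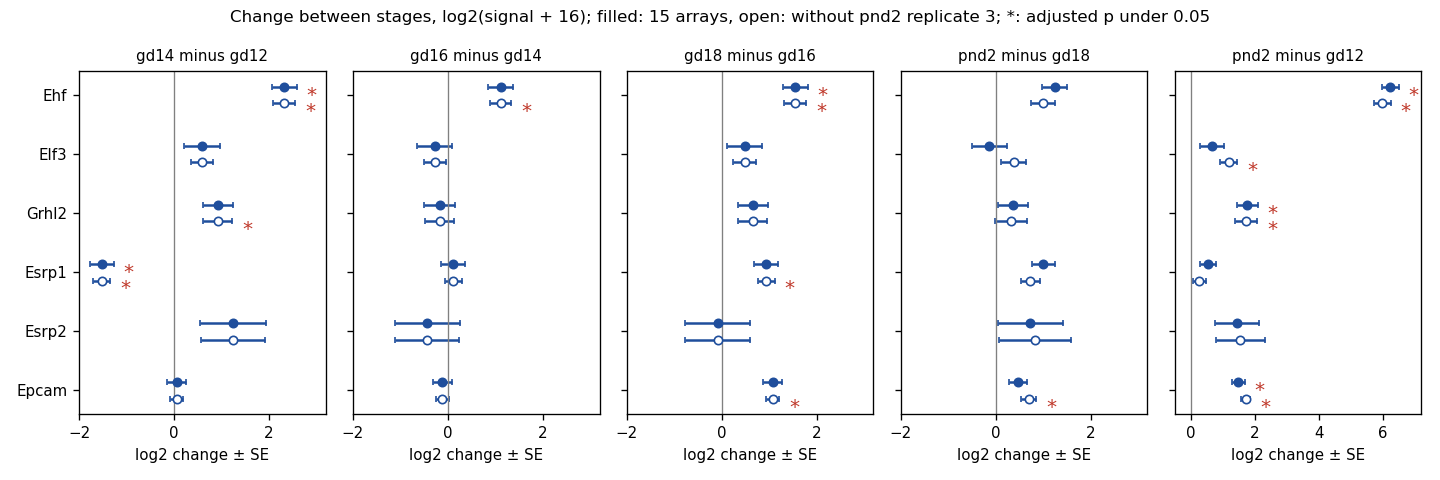
Log2 change with its SE (x axis) of the brightest probe set of the 6 genes that passed the filter (y axis), for the 4 neighbouring intervals and for pnd2 minus gd12, whose panel has a wider scale. Filled points use 15 arrays, open points leave out pnd2 replicate 3, and an asterisk marks an adjusted p under 0.05. Ehf lies right of 0 in all panels, and Esrp1 lies left of 0 at gd14 minus gd12.

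Counted over the 10 member probe sets tested, 3 were called at gd14 against gd12, 2 higher (both Ehf) and 1 lower (Esrp1), where 8.72% of all tested probe sets were called, 5.08% higher and 3.63% lower. At gd16 against gd14 no member was called by limma (0.0616% of all probe sets), and at gd18 against gd16 1 was (0.142%). At pnd2 against gd18 no member was called (0.558%). At gd18 against gd14 4 were called higher (1.84% of all in either direction, 1.19% higher), from Ehf, Esrp1 and Epcam. At pnd2 against gd12 6 were called higher, from Ehf, Grhl2 and Epcam, where 21.1% were called in either direction and 10.3% higher. A probe set such as those of Ehf passed the filter only through the stages where it was high, so these counts describe the members and do not set them apart from other genes. Without pnd2 replicate 3 the counts became 5, 1, 3, 1, 5 and 7 in the same order of comparisons, where 24.2%, 0.731%, 1.02%, 1.78%, 6.47% and 28.4% of all probe sets were called.

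When limma tested all 5 stages at once (moderated F), 7 member probe sets were called, against 20.9% of all tested. They were the 3 of Ehf, both of Epcam, that of Esrp1 and 1427046_at of Grhl2. Elf3 had an adjusted p of 0.393 in that test, and of 0.0131 without pnd2 replicate 3, where 39.2% of all probe sets were called.

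An epithelial index was the mean log2(signal + 16) per array of 5 genes, and it gives their level and not epithelial content. Its genes were Cdh1 (an adhesion protein of epithelial cells), Cldn7 (a tight junction protein) and Spint1 (a protease inhibitor of epithelial surfaces). Krt8 and Krt18, keratins of simple epithelia, were the others. The index averaged 8.96 ± 0.56 at gd12, 9.86 ± 0.10 at gd14, 9.50 ± 0.22 at gd16, 10.02 ± 0.02 at gd18 and 10.44 ± 0.29 at pnd2 (SD, n = 3). The 5 genes did not move alike on pnd2 replicate 3. There Cdh1 gave 2177, against 722 and 652 on the other pnd2 arrays, and Cldn7 gave 154.9, against 2174 and 1626. Nor did they on gd12 replicate 14, where Cdh1 was the highest of gd12 (533, against 403 and 492). The other index genes were lowest of gd12 there, with Cldn7 at 109, against 485 and 679. The index of that array was 8.33, against 9.15 and 9.40 on the other gd12 arrays. Between gd14 and gd12 Krt8 and Krt18 rose, by 1.40 and 1.68, while Cldn7 was higher by 1.40, Cdh1 lower by 0.36 and Spint1 higher by 0.35, and none of these 3 passed. With the index taken off each array, the median of all probe sets shifted by -0.83 at gd14 against gd12 and by -1.61 at pnd2 against gd12. A fall on this scale is therefore common. Without gd12 replicate 14 these shifts were -0.53 and -1.31.

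Relative to the index Ehf still rose. For 1451375_at the change was 1.43 ± 0.39 at gd14 against gd12 (adjusted p = 0.0096), 2.50 ± 0.39 at gd18 against gd14 (adjusted p = 0.0012) and 4.75 ± 0.39 at pnd2 against gd12 (adjusted p = 8.6e-09), in comparisons where 0.928%, 0.435% and 1.64% of all probe sets rose. The call at gd14 against gd12 held in all 15 fits with 1 array left out and was lost with a constant of 64 (0.38 ± 0.33, adjusted p = 0.315). At gd16 against gd14 1451375_at was higher by 1.47 ± 0.39. That change did not pass (adjusted p = 0.204) and passed without pnd2 replicate 3 (adjusted p = 0.0222). At pnd2 against gd18 1451375_at was higher by 0.82 ± 0.39, which did not pass (adjusted p = 0.131). Without pnd2 replicate 3 that difference was 0.40 ± 0.39 (adjusted p = 0.405). The other Ehf probe sets that passed the filter rose at pnd2 against gd12 by 1.98 and 1.76, and the second of these calls was lost with a constant of 64 (adjusted p = 0.138). Grhl2 (1427046_at) stayed close to the index, with changes of -0.06 to 0.32 that did not pass in any of the 6 comparisons. At pnd2 against gd12 its change was 0.29 ± 0.33 (adjusted p = 0.41).

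Esrp1 fell relative to the index at gd14 against gd12 by 2.41 on the log2 scale (SE 0.38, adjusted p = 0.00023). At pnd2 against gd12 it fell by 0.94 (adjusted p = 0.025). In these comparisons 37.3% and 83.4% of all probe sets fell. Without pnd2 replicate 3 the fall of Esrp1 at pnd2 against gd12 was 1.38 (adjusted p = 0.00035), where 22398 of 25575 probe sets fell. That call was lost when pnd2 replicate 1 or pnd2 replicate 2 was left out instead. Both Epcam probe sets fell at gd14 against gd12, by 0.83 and 1.03 (adjusted p = 0.044 for each), and at pnd2 against gd12 they differed by 0.01 and -0.04. The median over all probe sets was -0.83, and the calls held in 5 and 6 of 15 fits with 1 array left out. Elf3 fell at pnd2 against gd12 by 0.81 (adjusted p = 0.035), and without pnd2 replicate 3 the difference was -0.46 and did not pass (adjusted p = 0.21). Probe set 1431877_a_at of Grhl2 fell at pnd2 against gd12 by 1.5 (adjusted p = 0.031). In all, 8 of the 10 probe sets tested were called on this scale in at least 1 comparison, as were 87% of all probe sets. The falls of Elf3, Esrp1 and 1431877_a_at at pnd2 against gd12 each held in 12 of 15 fits with 1 array left out, and all 3 were lost without gd12 replicate 14 and with an index that lacked Krt8 or Krt18.

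**Figure D4:**
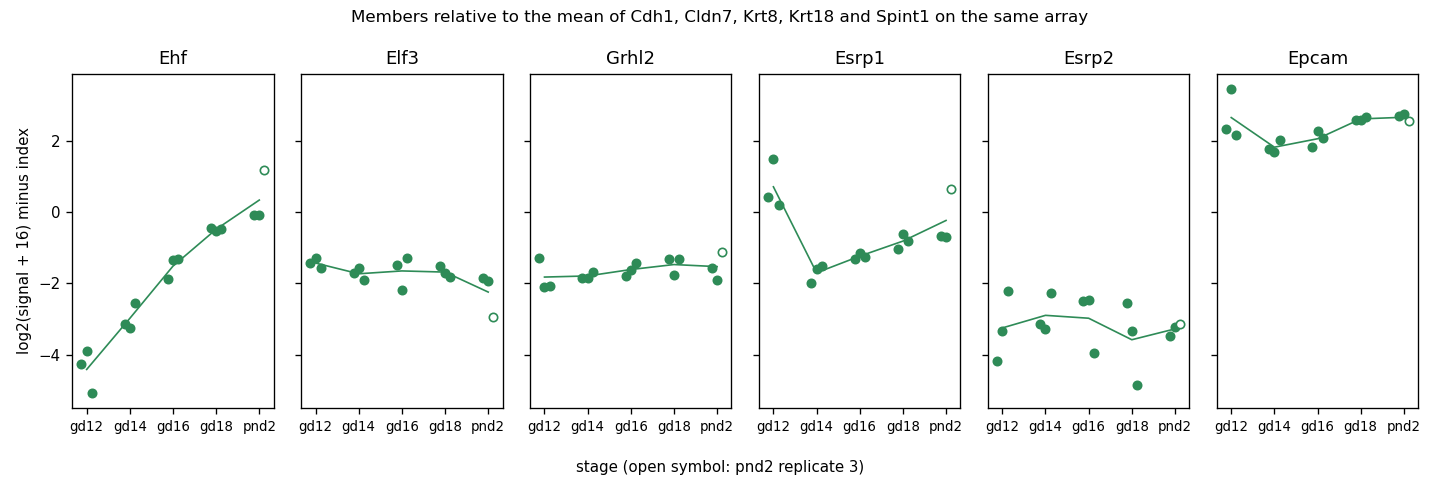
Level of 6 members relative to the epithelial index on the same array (y axis, log2 units) by stage (x axis). Points are arrays, the open symbol is pnd2 replicate 3, and lines join stage means. The mean of Ehf climbs through all stages, with pnd2 replicate 3 (1.17) above its stage mates (-0.07 and -0.08). Grhl2 is nearly level, and the mean of Esrp1 is highest at gd12.

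Genes of cell junctions and surfaces are known targets of such factors. Of 31 epithelial junction and surface genes measured, 5 rose and 2 fell at gd14 against gd12, where 6.01% of all genes rose and 4.94% fell. Krt18 and Krt19 (a keratin of duct cells) rose by 1.68 and 1.67, and Pkp2 (plakophilin 2, of desmosomes) fell by 1.53. At pnd2 against gd12 13 rose and none fell, where 13.4% rose and 11.6% fell. Mal2 (apical transport) rose by 3.36, Tmem30b (a lipid flippase subunit) by 2.29, Cldn3 (a tight junction protein) by 2.27 and Krt8 by 2.13. On pnd2 replicate 3 Cldn3 gave 49.3, against 604 and 692 on the other pnd2 arrays, and without that array it rose by 3.38. The list's median change was 0.90, against -0.07 over all genes. Without pnd2 replicate 3 the count at gd14 against gd12 was 12 higher and 4 lower, where 15% and 13.5% of all genes were called. At pnd2 against gd12 it was 17 higher and 3 lower, where 18% and 16.1% were. At the 3 neighbouring intervals after gd14 none of the 31 passed, where 0.0735%, 0.212% and 0.556% of all genes did. At gd18 against gd16, 1 of them rose without pnd2 replicate 3.

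Of 9 measured relatives of the ETS and grainyhead-like members, 1 rose and 1 fell at gd14 against gd12, where 6.01% of all genes rose and 4.94% fell. Ets2 rose by 0.86 and Etv5, an ETS factor downstream of FGF signals, fell by 1.53. At pnd2 against gd12 3 rose and 4 fell, where 13.4% of all genes rose and 11.6% fell. Etv5 fell by 2.20, Ets1, an ETS factor of lymphoid and endothelial cells, by 1.74, Elk3 by 1.41 and Grhl1 by 1.10. The family to which Ehf belongs thus held members that moved in the opposite direction.

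Among 8 other epithelial transcription factors measured, 3 rose and 2 fell at pnd2 against gd12 (13.4% and 11.6% of all genes). Gata3, a factor of the Wolffian duct, rose by 2.25, and Tfap2a by 2.18. Tfap2c fell by 3.96 and Sox9 by 3.05, and these 2 genes also stand in the germ cell and testis marker lists. Trp63, the factor of basal cells, rose at pnd2 against gd18 by 1.90 (adjusted p = 0.037), where 0.556% of all genes were called. Without pnd2 replicate 3 no gene of this list passed at pnd2 against gd18.

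Of 9 mesenchymal regulators, which include the targets of Ovol repression, 2 rose and none fell at gd14 against gd12 (6.01% and 4.94% of all genes). Without pnd2 replicate 3 the count was 3 higher and 1 lower, where 15% of all genes rose and 13.5% fell. Prrx1 rose by 1.98 and Twist2 by 1.36. Zeb1, the known Ovol target, did not pass (0.37, named after its values were seen). At pnd2 against gd12 2 rose and 2 fell (13.4% and 11.6% of all genes). Prrx1 (2.11) and Twist2 (1.63) rose, and Foxc2 fell by 2.35 and Snai2 by 1.22. The change of Foxc2 was -3.28 without pnd2 replicate 3.

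Of 12 other splicing regulators measured, 1 rose at gd14 against gd12, which was Celf2 (1.99), and 3 rose at pnd2 against gd12, where 6.01% and 13.4% of all genes rose. These were Celf2 (2.70), Mbnl1 (1.23), which favours splice forms of differentiated cells, and Mbnl2 (0.90). Rbfox1 fell at gd18 against gd14 by 2.10, where 2.48% of all genes were called. Of 8 transcripts known as targets of Esrp splicing, Cd44 rose at gd14 against gd12 by 1.68, at gd18 against gd16 by 1.37 and at pnd2 against gd12 by 3.28, and Slk rose by 0.56 and 0.50 at gd14 and pnd2 against gd12. Fgfr2, named after its values were seen, was 0.94 higher at gd14 than at gd12 and did not pass (adjusted p = 0.065). A probe set of this array sums splice forms, so these are levels of transcripts and not shares of a splice form.

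The genes most like each member over the 15 epididymis arrays were taken by Pearson correlation of log2(signal + 16), as a description of arrays that share stage, scaling and tissue makeup. For Ehf they were Anxa1 (0.989), Ppic (0.987) and Cav1 (0.985). For Grhl2 they were Dcdc2a (0.963), Tmem30b (0.949) and Bmpr1b (0.948), and for Esrp1 Hook1 (0.933), Entpd5 (0.929) and Acaa1b (0.928). For Epcam they were Tuba4a (0.938), Mfap5 (0.934) and Cnn1 (0.933), and for Elf3 Fbxo7 (0.926), Card10 (0.911) and Ninj1 (0.905). Esrp2 had lower values, at 0.840 for Slc9a9, 0.758 for Coa3 and 0.754 for Plscr2. Without pnd2 replicate 3 the ranks of the named genes, in the order given, were 5, 18 and 16 for Elf3. They were 3, 14 and 12 for Esrp2, 5, 6 and 8 for Esrp1, and 1, 7 and 5 for Epcam. For Ehf they were 4, 1 and 5, and for Grhl2 1, 3 and 2.

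Among the members themselves the brightest probe sets of Ehf and Grhl2 correlated at 0.86 over the 15 arrays, and those of Ehf and Epcam at 0.80. Esrp1 correlated with Ehf at 0.28 and with Grhl2 at 0.19, and at 0.08 and 0.01 without pnd2 replicate 3. Elf3 and Ehf correlated at 0.41, and at 0.75 without pnd2 replicate 3.

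The newborn pool sets these genes in whole animals, skin included. Its 5 measured epidermis markers summed to 82242, against 1099 to 3284 on the pnd2 arrays, and its junction and surface genes to 68915, against 38429 to 40468. With 1 array no test was possible. Ehf (1451375_at) gave 1489, 1435 and 2469 at pnd2, against 133 in the pool, and the pnd2 mean was 13.5 times the pool's value. The ratio was smaller for the other Ehf probe sets that passed the filter. Probe set 1419474_a_at averaged 385 at pnd2, against 95.9 in the pool (4.01 times), and 1419475_a_at 224 against 54.9 (4.09 times). Epcam (1416579_a_at) averaged 8984 at pnd2, against 4226 in the pool. Elf3 averaged 312 at pnd2, against 503.03 in the pool, Grhl2 (1427046_at) 469 against 463, and Esrp1 1211 against 1067. Without pnd2 replicate 3 the pnd2 means of the Ehf probe sets were 1462, 448 and 290 in the same order. Those of Epcam and Elf3 were 10261 and 405. All of these stayed on the same side of the pool, while the means of Grhl2 (456) and Esrp1 (963) lay below it.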

How the data were processed

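Per the labels, RNA of whole epididymides was amplified in the Affymetrix two-cycle protocol and labelled with biotin. The authors' deposited table holds a linear intensity (signal) for each probe set on each array, made with GCOS per the submitters' processing notes. The signal algorithm and the software version were not given in the sources used here, and detection calls were not used. Genes were named from the platform's annotation. Probe sets with several symbols (932) or not listed (9160) were left unnamed, and 64 controls were left out. A probe set passed the filter if 3 or more of the 15 epididymis arrays had it at or above the array median. Values were log2(signal + 16), and limma 3.58.1 (R 4.3.3) fitted 1 mean per stage with an intensity trend, with Benjamini-Hochberg adjustment over 25981 probe sets within each of 6 comparisons. Gene lists were counted over 12239 genes, each by its brightest kept probe set. The newborn pool was in no fit. The number of arrays limits the precision. Each list gene named is among up to 4 called ones with the largest change per list and comparison, unless stated. The alternatives tried were constants of 1 and 64, quantile normalization, median centring, no filter, genes in place of probe sets, no trend, array weights, fewer arrays, and an index without each of its genes. The fit was tested on simulated data at gd14 against gd12. Members and lists were chosen with earlier results of these data known.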

Additional observations from a re-analysis of the deposited data

How the results depend on the processing

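No single member call changed direction in any alternative, and 295 recomputed calls were kept while 50 lost significance. With 1 array left out, member probe sets called numbered 2 to 5 at gd14 against gd12 (3 with 15 arrays), 0 to 1 at gd16 against gd14 (0), 0 to 3 at gd18 against gd16 (1), 0 to 2 at pnd2 against gd18 (0), 1 to 5 at gd18 against gd14 (4), 5 to 7 at pnd2 against gd12 (6), 6 to 8 over all stages (7) and 4 to 8 relative to the index (8). All probe sets called in these fits numbered 1250 to 6183, 6 to 187 and 7 to 260 in the first 3 comparisons. In the next 3 they numbered 3 to 816, 199 to 1654 and 3667 to 7267, of 25575 to 25856 tested. Over all stages 20.9% of all probe sets were called with 15 arrays and 39.2% without pnd2 replicate 3. Relative to the index 87% were called in at least 1 comparison with 15 arrays. At pnd2 against gd12 alone, 18937 to 22785 probe sets were called on that scale with 1 array left out. Array weights gave 5 at gd14 against gd12, 1 at gd16 against gd14, 3 at gd18 against gd16 and 3 at pnd2 against gd18. With those weights 5895, 471, 438 and 864 of all 25981 probe sets were called. At gd18 against gd16 median centring, a constant of 1 and no filter gave 0 each, where 28, 18 and 27 of all probe sets were called. A constant of 64, genes in place of probe sets, the fit without 3 arrays in doubt and the fit of 6 arrays gave 2 each. There 49 probe sets, 40 of 12239 genes, 50 probe sets and 281 probe sets were called in all. At pnd2 against gd18 quantile normalization and a constant of 64 gave 1 each, of 213 and 236 called in all. At gd18 against gd14 no filter gave 2, where 360 of 45037 probe sets were called. With genes in place of probe sets, which leaves 6 members to test, 3 were called at pnd2 against gd12, 4 over all stages and 4 relative to the index. At pnd2 against gd12 3362 of all 12239 genes were called in that fit, and 10227 relative to the index. Without Cldn7 the index gave 5, and without Krt8 or Krt18 it gave 4. With those indices 22791, 20685 and 20910 of all 25981 probe sets were called at pnd2 against gd12 alone. No paired analysis was possible because the replicate numbers in the labels differ for every array. Ehf at gd12 lies near the lowest signals, where the constant sets the size of a fold.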
